A study of Mus musculus with 53 samples.

Results

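Messenger RNAs of 10 genes that help bring monocytes and other leukocytes from the blood into the liver were followed through 53 mouse livers: the chemokines Ccl2, Ccl5, Ccl6, Ccl24, Cxcl9, Cxcl10 and Cxcl16, the chemokine receptor Ccr2, and the adhesion molecules Vcam1 and Icam1. The 10 genes were taken by symbol from the count tables, and all 10 were among the 36410 genes that the 3 tables share. Chemokines are small secreted proteins that bind receptors on leukocytes and direct their movement. Ligands of CCR2, chiefly CCL2, draw Ly6C-high monocytes out of the bone marrow and into inflamed liver, where the cells become macrophages. Rolling monocytes arrest on the endothelium when their integrins bind VCAM-1 and ICAM-1.

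The mice were C57BL/6J males, and the RNA came from snap-frozen whole liver, with 1 library per sample, in 3 experiments. In the diet experiment, with mice given as 9 weeks old, 7 Bmp8b knockout and 7 wild-type mice ate a Western diet (Teklad TD88137) for 32 weeks and 9 wild-type mice ate a low-fat control diet (Teklad TD08485). In the toxin experiment, with mice of 16 weeks, 6 Bmp8b knockout and 4 wild-type mice received carbon tetrachloride (CCl4). CCl4, a toxin that kills hepatocytes around the central vein, was mixed 1:1 by volume with olive oil. The mix was given at 2 ul per g body weight. A further 6 wild-type mice received olive oil alone, and livers were taken at day 3. In the surgery experiment, also at 16 weeks, 4 Bmp8b knockout and 5 wild-type livers were taken at day 3 after partial hepatectomy, and 5 wild-type samples are of day 0, the liver removed at surgery. The labels give neither the knockout allele nor a promoter or Cre driver, no group holds unchallenged knockout livers, and the wild-type mice are described as littermates. Levels are CPM, a gene's counts scaled to a common library total after normalization, and a gene was called where its Benjamini-Hochberg adjusted p over all tested genes was under 0.05 by edgeR's quasi-likelihood test.

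Library totals ran from 8963187 to 15196537 counts on the diets, between 2661699 and 6364414 with CCl4 or olive oil, and between 2450358 and 6914274 with hepatectomy, so low-level genes were measured least precisely after CCl4 and hepatectomy. Hepatocyte markers, which define the tissue, were abundant throughout, with a summed level of 4 such genes of at least 43180 CPM in every liver. Bmp8b, the targeted gene, averaged 1.53 CPM in knockout and 1.07 CPM in wild-type livers on Western diet, 1.18 CPM in knockout and 0.464 CPM in wild-type livers after CCl4, and 2.12 CPM in knockout and 0.848 CPM in wild-type livers at day 3 of hepatectomy. Its total was not lower in the knockout group of any experiment, and gene totals do not show which exons were read, so the knockout groups are called labelled knockout. In bulk tissue, fewer cells of a type and less RNA per cell cannot be told apart. Mouse numbers differ within each group, but the wild-type day 0 and day 3 samples of hepatectomy share the numbers 12 to 16, and the labels do not say whether these are the same animals. The p-values measure the spread between these samples.

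Livers 35 (labelled knockout) and 34 (wild type) stood apart from the other CCl4 livers. The summed level of 5 monocyte markers was 293.1 CPM in labelled knockout liver 35, against 11.9 to 21.5 CPM in the other 5 labelled knockout livers, and 229.7 CPM in wild-type liver 34, against 23.5 to 85.4 CPM in the other wild-type livers. The summed level of 4 neutrophil markers was 55.8 CPM in liver 35 and 163.4 CPM in liver 34. Wild-type liver 4, with 58.4 CPM, was above liver 35, and the remaining CCl4 livers had at most 8.40 CPM. Livers 34 and 35 both carry the library index D505, which in this experiment they share only with 3 olive oil livers. Results after CCl4 are therefore given with and without these livers. Without liver 34, wild-type CCl4 and olive oil livers share no index, so index and CCl4 cannot be told apart in those fits.

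Several members are neighbours in the genome (GRCm38). Cxcl9 (chr5:92321347-92328079, minus strand) and Cxcl10 (chr5:92346638-92348889, minus strand) are 18.6 kb apart. Ccl5 (chr11:83525778-83530518) and Ccl6 (chr11:83587882-83593087) are 57.4 kb apart on the minus strand, with Ccl2 (chr11:82035571-82037453, plus strand) and Cxcl16 (chr11:70453983-70459984, minus strand) on the same chromosome. Ccl24 is at chr5:135569937-135573049, Ccr2 at chr9:124101950-124113557, Icam1 at chr9:21015985-21028817 and Vcam1 at chr3:116109949-116129688. An annotated gene overlaps Ccl2 (Gm17268), Ccl6 (E230016K23Rik), Cxcl10 (Art3), Cxcl16 (Zmynd15), Vcam1 (Gm43109) and Icam1 (Gm47079) on the opposite strand. The strand setting of the counting is not stated in the sources used here, so reads of these 6 genes and their partners may not be told apart.

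Promoters of Cxcl9, Cxcl10 and Icam1 are shown because the neighbours Cxcl9 and Cxcl10 were both called higher on Western diet while only Cxcl9 was called after CCl4, and because Icam1 had the highest single value in CPM after CCl4 (280 CPM in liver 34). They are RefSeq sequences (GRCm38.p6) from 250 bases before to 50 bases after the annotated start, read on the gene's strand, and the RefSeq table held 5 of the 10 genes (these 3, Ccl6 and Ccr2). Capitals mark matches, on either strand, to 3 motifs: the kappaB consensus, bound by NF-kappaB; the core of the interferon-stimulated response element, GAAANNGAA; and the gamma-activated site, TTCNNNGAA.
Cxcl9 (chr5:92328030-92328329, minus strand): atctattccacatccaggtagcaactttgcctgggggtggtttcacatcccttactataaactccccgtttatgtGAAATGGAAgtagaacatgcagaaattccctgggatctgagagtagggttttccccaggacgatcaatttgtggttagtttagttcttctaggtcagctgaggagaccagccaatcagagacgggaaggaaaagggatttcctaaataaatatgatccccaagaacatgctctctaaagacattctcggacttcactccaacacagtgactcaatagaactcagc
Cxcl10 (chr5:92348840-92349139, minus strand): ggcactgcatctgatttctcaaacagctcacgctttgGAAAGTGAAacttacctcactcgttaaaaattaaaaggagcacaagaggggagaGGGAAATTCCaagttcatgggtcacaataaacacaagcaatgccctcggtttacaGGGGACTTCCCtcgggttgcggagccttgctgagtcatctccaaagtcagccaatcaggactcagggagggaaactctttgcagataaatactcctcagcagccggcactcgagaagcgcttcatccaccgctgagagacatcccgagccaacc
Icam1 (chr9:21015690-21015989, plus strand): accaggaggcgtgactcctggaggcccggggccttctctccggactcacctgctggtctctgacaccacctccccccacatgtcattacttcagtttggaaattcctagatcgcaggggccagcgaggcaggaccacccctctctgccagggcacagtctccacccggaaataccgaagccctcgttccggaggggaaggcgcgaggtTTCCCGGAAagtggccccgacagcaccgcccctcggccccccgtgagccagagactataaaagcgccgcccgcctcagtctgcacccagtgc
Cxcl9 and Cxcl10 each held an interferon-response core, at -175 and -213 from the start. The kappaB consensus was searched as GGGRNNYYCC, where R is A or G, Y is C or T and N is any base. Only Cxcl10 of these 3 matched it, at -159 and in 2 overlapping windows at -104 and -103. Stretches that differ from the pattern by a letter were not counted, such as tggaaattcc in Icam1 and gggatttcct in Cxcl9. Icam1 held a gamma-activated site at -42, Ccr2 an interferon-response core on the minus strand at -86, and Ccl6 none of these motifs. A TATA box, TATAAA, was also searched and was at -195 in Cxcl9 and at 14 in Icam1. Among all 32851 promoters of the table, 8.46% held the kappaB consensus, 8.56% the interferon-response core, 8.30% the gamma-activated site and 13.6% the TATA box, so a single match is common and is a description of letters, not of binding.

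**Figure D1:**
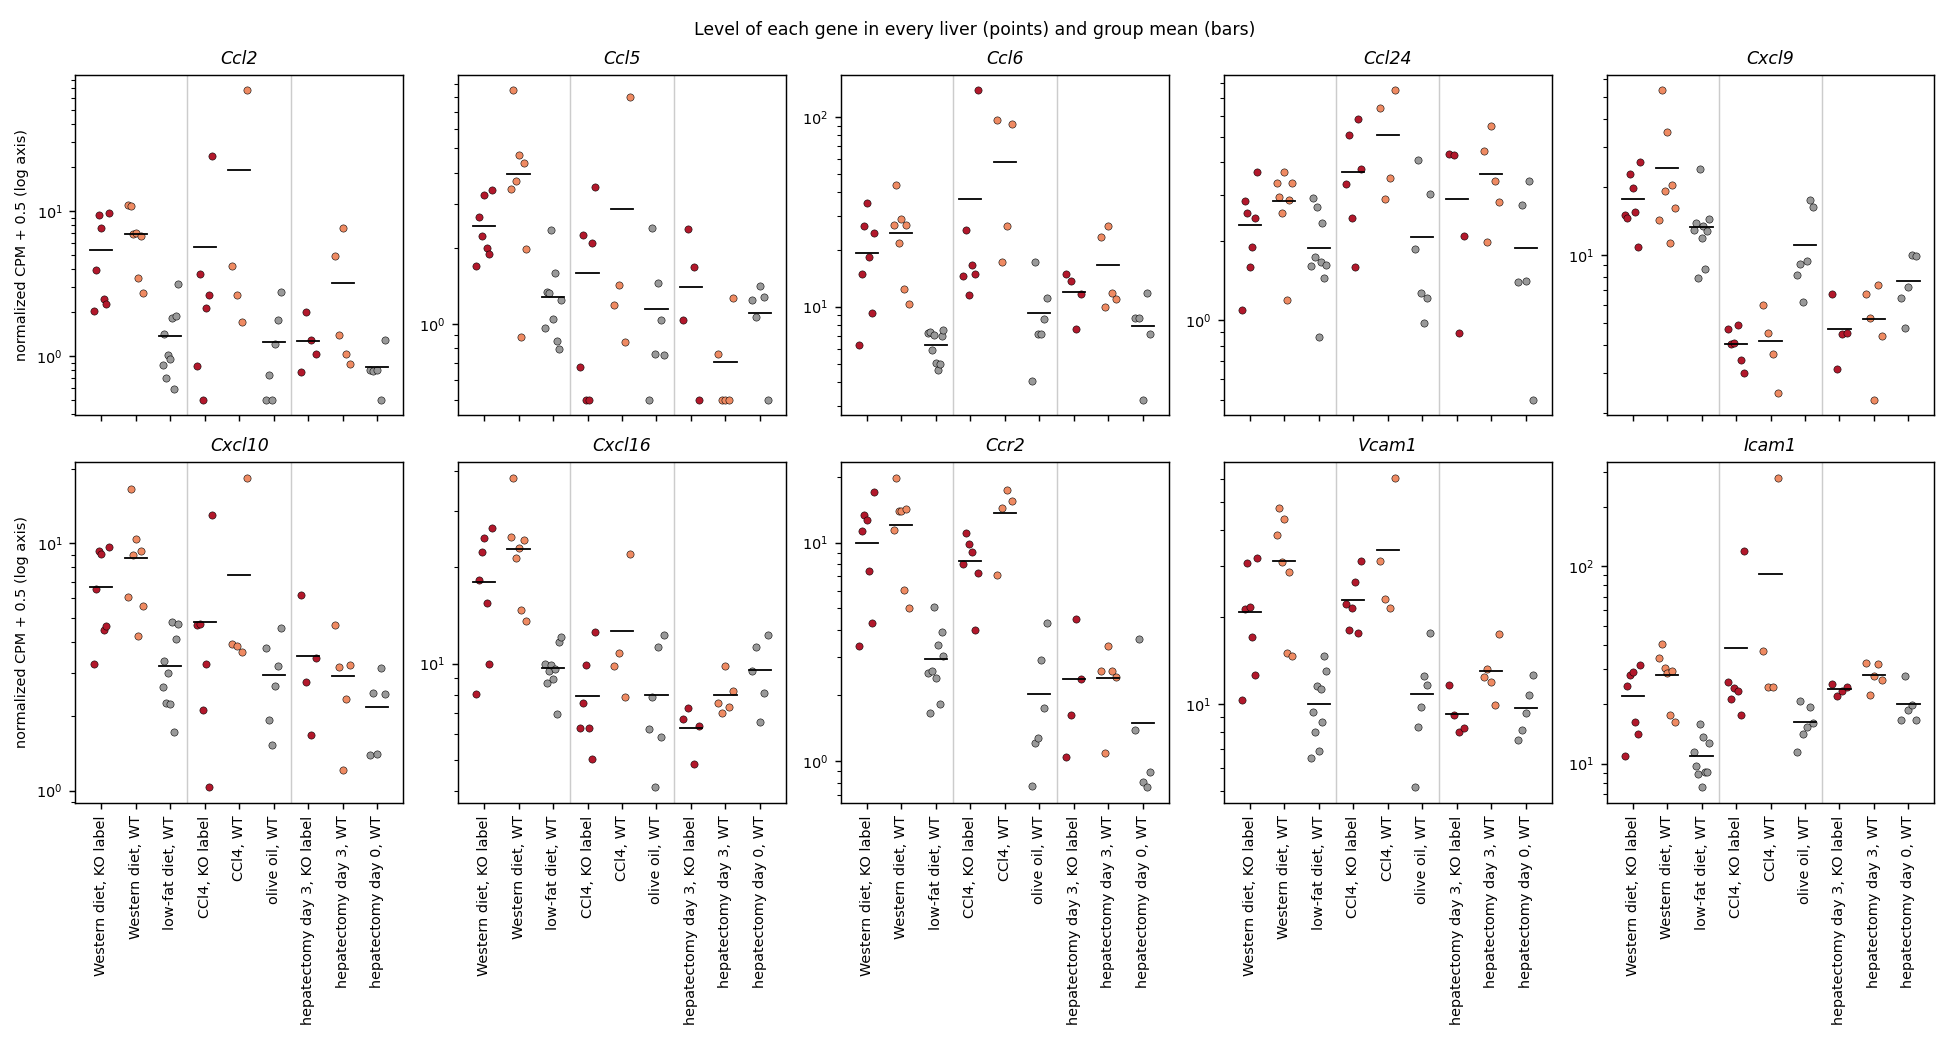
Normalized CPM + 0.5 (log axis) of the 10 genes in every liver (points) with the group mean (bars), with labelled knockout, wild-type challenged and wild-type control livers side by side for each experiment. Challenged livers lie above the controls for most genes on Western diet, Cxcl9 lies below the controls after CCl4, and single CCl4 livers reach 67.8 CPM for Ccl2 and 280 CPM for Icam1.

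Western diet raised 9 of the 10 genes in wild-type livers, CCl4 raised 5 of 9 and lowered Cxcl9, and hepatectomy raised 2 of 6, neither of which was called with the mouse number as a block. The background differed between the challenges: of all genes tested, 20.4% were called higher on Western diet, 11.1% were called higher and 8.87% lower after CCl4, and 9.87% were called higher at day 3 of hepatectomy. The median log2 fold change of the tested members was 1.65 on Western diet, against -0.02 over all genes. After CCl4 it was 1.69, against 0.05 over all genes, and after hepatectomy 0.49, against a median over all genes of -0.0047. Ccl5 was too low to be tested after CCl4, and Ccl2, Ccl5, Cxcl10 and Ccr2 were too low after hepatectomy. Without livers 34 and 35, 5 members were called after CCl4 against 6 with them, Ccl2 no longer among them.

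**Figure D2:**
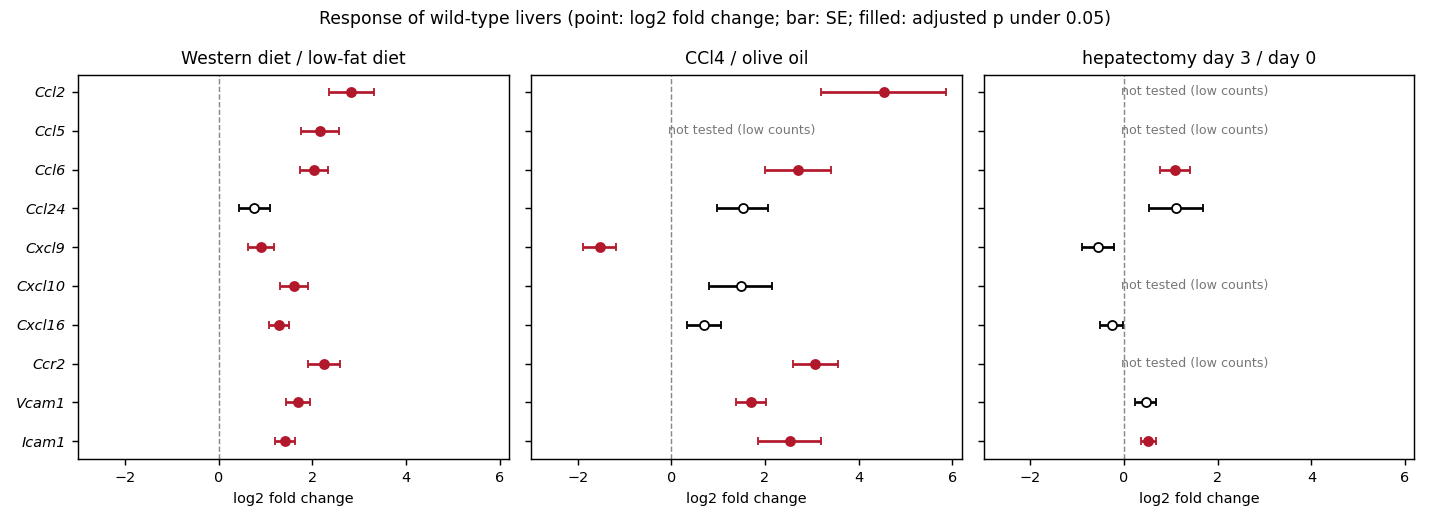
Log2 fold change of each gene in wild-type livers (points, with the SE as bars) for Western over low-fat diet, CCl4 over olive oil and hepatectomy day 3 over day 0, filled where the adjusted p was under 0.05. Ccl2 has the largest estimates on diet and after CCl4, with a wide error after CCl4, and Cxcl9 after CCl4 is the only filled point below 0.

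Among the CC chemokines, Ccl2, the principal CCR2 ligand, had 2.23, 6.42 and 10.5 CPM as lowest, median and highest level in wild-type livers on Western diet, against 0.0881, 0.521 and 2.62 CPM on low-fat diet. The ranges overlapped only through Western diet liver 36 and low-fat liver 27. The log2 fold change was 2.83 (SE 0.48, adjusted p = 8.55e-05), a 7.13-fold difference, and within the livers of index D502 alone it was 1.93 with adjusted p = 0.0628. After CCl4, Ccl2 had 1.22, 2.13, 3.65 and 67.8 CPM in the 4 wild-type livers, against 0 to 2.26 CPM after olive oil. Liver 34 alone held 280 of the 319 Ccl2 reads of the 4 livers. The fitted log2 fold change of 4.53 (SE 1.33, adjusted p = 0.0249) was 1.55 with adjusted p = 0.417 without liver 34, and 1.55 with adjusted p = 0.203 without livers 34 and 35. The call was also lost without olive oil liver 24 (4.30, adjusted p = 0.0518) or 27 (4.29, adjusted p = 0.0513), both at 0 Ccl2 counts, where 3 counts remain possible by counting error alone. At day 3 of hepatectomy the 5 wild-type livers had 17, 3, 20, 2 and 1 Ccl2 counts (mice 12 to 16), against 2, 1, 1, 0 and 2 counts at day 0. With no filter on low counts, the log2 fold change was 2.94 (SE 0.86, adjusted p = 0.0174), and livers 12 and 14 held most of these reads.

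Ccl5, which recruits T cells and monocytes, had a median of 3.21 CPM (range 0.387 to 8.05) in wild-type livers given Western diet and 0.75 CPM (range 0.294 to 1.88) on low-fat diet. Its log2 fold change was 2.16 (SE 0.41, adjusted p = 0.000244), although livers 32 and 36 lay within the low-fat range. After CCl4 it had 0.35, 0.685, 0.933 and 7.5 CPM in wild-type livers, the highest again in liver 34, against 0 to 1.90 CPM after olive oil. After hepatectomy 3 of 5 wild-type livers held no Ccl5 count, against 1 of 5 at day 0.

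Ccl6, a chemokine of mouse macrophages and myeloid cells, was called higher in all 3 experiments, at hepatectomy only without a block on the mouse number (1.06, adjusted p = 0.0568 with it). On Western diet it ranged from 9.89 to 43.0 CPM (median 26.4), wholly above the 4.15 to 7.03 CPM (median 6.54) of low-fat livers, with a log2 fold change of 2.04 (SE 0.30, adjusted p = 2.22e-05). After CCl4 wild-type livers had 16.7, 26.1, 91.0 and 95.9 CPM, against 3.56 to 16.7 CPM after olive oil, where the lowest CCl4 liver and the highest olive oil liver were level. The log2 fold change was 2.70 (SE 0.71, adjusted p = 0.0143). Livers 4 and 34 carried the high values, and without livers 34 and 35 the log2 fold change was 2.38 (adjusted p = 0.00118). At day 3 of hepatectomy wild-type livers had 9.49, 10.4, 11.3, 22.8 and 26.1 CPM, against 2.74, 6.66, 8.19, 8.20 and 11.3 CPM at day 0. This log2 fold change of 1.09 (SE 0.33, adjusted p = 0.0264) lost its call without day 3 liver 12 (0.92, adjusted p = 0.0845) or 14 (0.86, adjusted p = 0.0880), and without day 0 liver 14 (0.89, adjusted p = 0.0614) or 16 (1.05, adjusted p = 0.0530).

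Ccl24, an eotaxin that attracts eosinophils through CCR3, was called in no experiment, with positive estimates in each. On Western diet it averaged 2.35 ± 0.812 CPM in wild-type livers (SD, n = 7), against 1.38 ± 0.650 CPM on low-fat diet (SD, n = 9), a log2 fold change of 0.76 (SE 0.32, adjusted p = 0.0638). Liver 32 was the low value on Western diet, and the call was made without it (0.92, adjusted p = 0.0173), without low-fat liver 12 (0.91, adjusted p = 0.0337) or without low-fat liver 19 (0.86, adjusted p = 0.0436). After CCl4 wild-type livers had 2.40, 2.97, 5.94 and 7.02 CPM, against 0.478 to 3.57 CPM after olive oil (log2 fold change 1.52, SE 0.54, adjusted p = 0.0555). It was called without CCl4 liver 5 (1.73, adjusted p = 0.0492) and without olive oil liver 26 (1.94, adjusted p = 0.0226). Hepatectomy gave it a log2 fold change of 1.11 (SE 0.58, adjusted p = 0.209). The eosinophil markers Siglecf, Epx and Prg2 were too low to be tested in any experiment, and Epx was at 0 counts in every group.

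Of the CXC chemokines, all 3 were called higher on Western diet and only Cxcl9, which was lower, was called after CCl4. Cxcl9 and Cxcl10 are ligands of CXCR3 on activated T and NK cells and are induced by interferon-gamma, and Cxcl16 is a membrane-bound ligand of CXCR6. Cxcl9 had 10.8, 18.7 and 53.1 CPM as lowest, median and highest level in wild-type livers on Western diet, against 7.39, 12.4 and 23.5 CPM on low-fat diet. The ranges overlapped widely, with low-fat liver 19 at 23.5 CPM. Its log2 fold change of 0.90 (SE 0.27, adjusted p = 0.0112) was the smallest of the 9 called on diet, and was not called without Western diet liver 14 (0.57, adjusted p = 0.0679), within index D501 (1.01, adjusted p = 0.0728) or within index D502 (0.79, adjusted p = 0.126). After CCl4 the wild-type livers had 1.94, 3.15, 4.00 and 5.48 CPM, all below the 5.66, 7.66, 8.57, 8.85, 15.8 and 16.9 CPM of the olive oil livers. Cxcl9 thus fell, with a log2 fold change of -1.53 (SE 0.35, adjusted p = 0.00661), 2.90-fold lower after CCl4. Its call held without any single library (range -1.78 to -1.34) and without livers 34 and 35 (-1.35, adjusted p = 0.0102). Liver 34, which had the highest Ccl2, Ccl5, Cxcl10 and Icam1 of the CCl4 group, had its lowest Cxcl9. The labelled knockout livers were not compared in that test but were part of its fit. They had 2.50 to 4.41 CPM of Cxcl9 after CCl4, also below every one of the same olive oil livers. In wild-type livers at day 3 of hepatectomy Cxcl9 was at 1.79 to 6.83 CPM and in day 0 livers at 4.24 to 9.43 CPM (log2 fold change -0.56, SE 0.34, adjusted p = 0.294).

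Cxcl10 had a median of 8.42 CPM (range 3.72 to 16.0) in wild-type livers given Western diet and 2.50 CPM (range 1.23 to 4.31) on low-fat diet. It rose by 1.60 on the log2 scale (SE 0.30, adjusted p = 0.000225), though within index D502 the value was 1.18 with adjusted p = 0.0720. After CCl4 the wild-type livers had 3.15, 3.33, 3.42 and 17.9 CPM, so that 3 of the 4 lay within the olive oil range of 1.03 to 4.02 CPM and only liver 34 lay above it. The log2 fold change was 1.48 (SE 0.67, adjusted p = 0.130), and 0.43 without livers 34 and 35. Wild-type livers at day 3 of hepatectomy had 2 to 16 Cxcl10 counts, against 3 to 10 counts at day 0, which was too few to be tested.

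Cxcl16 ranged from 13.1 to 37.7 CPM (median 22.5) in wild-type livers on Western diet, above every low-fat liver (6.43 to 11.6 CPM, median 9.08). The log2 fold change was 1.29 (SE 0.22, adjusted p = 9.89e-05). After CCl4 it had 7.35, 9.36, 10.3 and 21.5 CPM in wild-type livers, against 3.60 to 11.8 CPM after olive oil (log2 fold change 0.69, SE 0.37, adjusted p = 0.195). Wild-type livers of hepatectomy day 3 had 6.53 to 9.30 CPM, inside the day 0 range of 6.08 to 11.8 CPM (log2 fold change -0.27, SE 0.24, adjusted p = 0.492).

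Ccr2, the receptor by which monocytes sense CCL2, had 4.54, 13.4 and 19.3 CPM as lowest, median and highest level in wild-type livers on Western diet, against 1.17, 2.08 and 4.58 CPM on low-fat diet. The ranges touched only between Western diet liver 36 and low-fat liver 19, and the log2 fold change was 2.25 (SE 0.34, adjusted p = 2.87e-05). After CCl4 it had 6.62, 13.9, 15.0 and 17.0 CPM in wild-type livers, all above the olive oil livers at 0.274, 0.714, 0.772, 1.26, 2.39 and 3.77 CPM. In contrast to Ccl2, liver 34 did not stand out for Ccr2. The log2 fold change was 3.08 (SE 0.47, adjusted p = 0.000709), 8.43-fold, and was 3.01 (adjusted p = 0.000312) without livers 34 and 35. After hepatectomy Ccr2 had 2 to 8 counts per wild-type liver at day 3 and 1 to 11 at day 0, with day 0 liver 13 alone holding 11 of the 20 day 0 reads. With no filter on low counts the log2 fold change there was 0.89 (SE 0.71, adjusted p = 0.480).

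The adhesion molecules Vcam1, whose partner is the Itga4-Itgb1 integrin, and Icam1, bound by the Itgb2 integrins, rose on Western diet and after CCl4. Vcam1 had 14.2, 30.6 and 47.3 CPM as lowest, median and highest level in wild-type livers on Western diet, against 5.99, 8.87 and 14.2 CPM on low-fat diet (log2 fold change 1.69, SE 0.26, adjusted p = 3.27e-05). The ranges met at 14.2 CPM without overlapping. After CCl4 the wild-type livers had 21, 22.7, 30.8 and 60.3 CPM, above all olive oil livers (4.65 to 17.1 CPM), with a log2 fold change of 1.69 (SE 0.32, adjusted p = 0.00234), or 1.25 (adjusted p = 0.00267) without livers 34 and 35. At day 3 of hepatectomy Vcam1 had 9.46, 11.4, 11.9, 12.8 and 17.0 CPM in wild-type livers, against 7.01, 7.62, 8.82, 10.2 and 12.1 CPM at day 0, and was not called (log2 fold change 0.46, SE 0.22, adjusted p = 0.167).

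Icam1 had 15.8, 29.0 and 39.9 CPM as lowest, median and highest level in wild-type livers on Western diet, above all low-fat livers (7.10 to 15.3 CPM, median 9.20), with a log2 fold change of 1.42 (SE 0.22, adjusted p = 3.28e-05). After CCl4 it had 24.0, 24.0, 36.8 and 280 CPM in wild-type livers and 10.9 to 20.2 CPM after olive oil. The groups did not overlap, but liver 34 set the size: the log2 fold change of 2.53 (SE 0.68, adjusted p = 0.0159) became 0.84 (adjusted p = 0.266) without it. Without livers 34 and 35 together it was 0.83 and was called (adjusted p = 0.00553). At day 3 of hepatectomy wild-type livers had 21.7, 25.9, 27.2, 31.5 and 31.9 CPM, against 16.1, 16.1, 18.2, 19.4 and 27.4 CPM at day 0. The log2 fold change was 0.51 (SE 0.16, adjusted p = 0.0304), and the adjusted p was 0.0822 without day 3 liver 12, 0.0797 without day 3 liver 15, and 0.0843, 0.0637, 0.0556 and 0.0711 without day 0 livers 12, 14, 15 and 16 in turn. With the mouse number as a block it was 0.0639. Day 3 and day 0 libraries share no index, so index and day cannot be told apart in the hepatectomy results.

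The differences between these responses were tested directly in 1 model of all 53 livers, over 12646 genes, of which 16.1% were called for diet minus CCl4, 6.09% for CCl4 minus hepatectomy and 3.53% for diet minus hepatectomy. Cxcl9 was the member whose response differed between diet and CCl4: the log2 response was 2.45 higher on Western diet (SE 0.47, adjusted p = 0.000235, 95% interval 1.54 to 3.36). Cxcl9 was called in all 26 fits that left out a library, from 2.10 to 2.66. For its neighbour Cxcl10 the same difference was 0.15 (SE 0.65, 95% interval -1.13 to 1.43), and leaving out a library moved it between -0.13 and 1.16. Of the wild-type CCl4 livers, only liver 34 had more Cxcl10 (17.9 CPM) than every olive oil liver (at most 4.02 CPM). Whether the responses of Cxcl9 and Cxcl10 differ from each other was not tested. Cxcl16 was the member whose response differed between diet and hepatectomy, by 1.56 (SE 0.40, adjusted p = 0.0191). Cxcl9 missed the threshold there (1.46, adjusted p = 0.0693) and was called without Western diet liver 32 (1.58, adjusted p = 0.0404) or low-fat liver 19 (1.61, adjusted p = 0.0388). No member was called for CCl4 minus hepatectomy, where 6 of 10 had an unadjusted p under 0.05, as did 2862 of all 12646 genes. Icam1 came nearest at 1.98 (SE 0.64, adjusted p = 0.0532), and it was called without CCl4 liver 4 (2.26, adjusted p = 0.0281), 5 (2.33, adjusted p = 0.0166) or 7 (2.27, adjusted p = 0.0163), and was 0.32 without CCl4 liver 34.

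**Figure D3:**
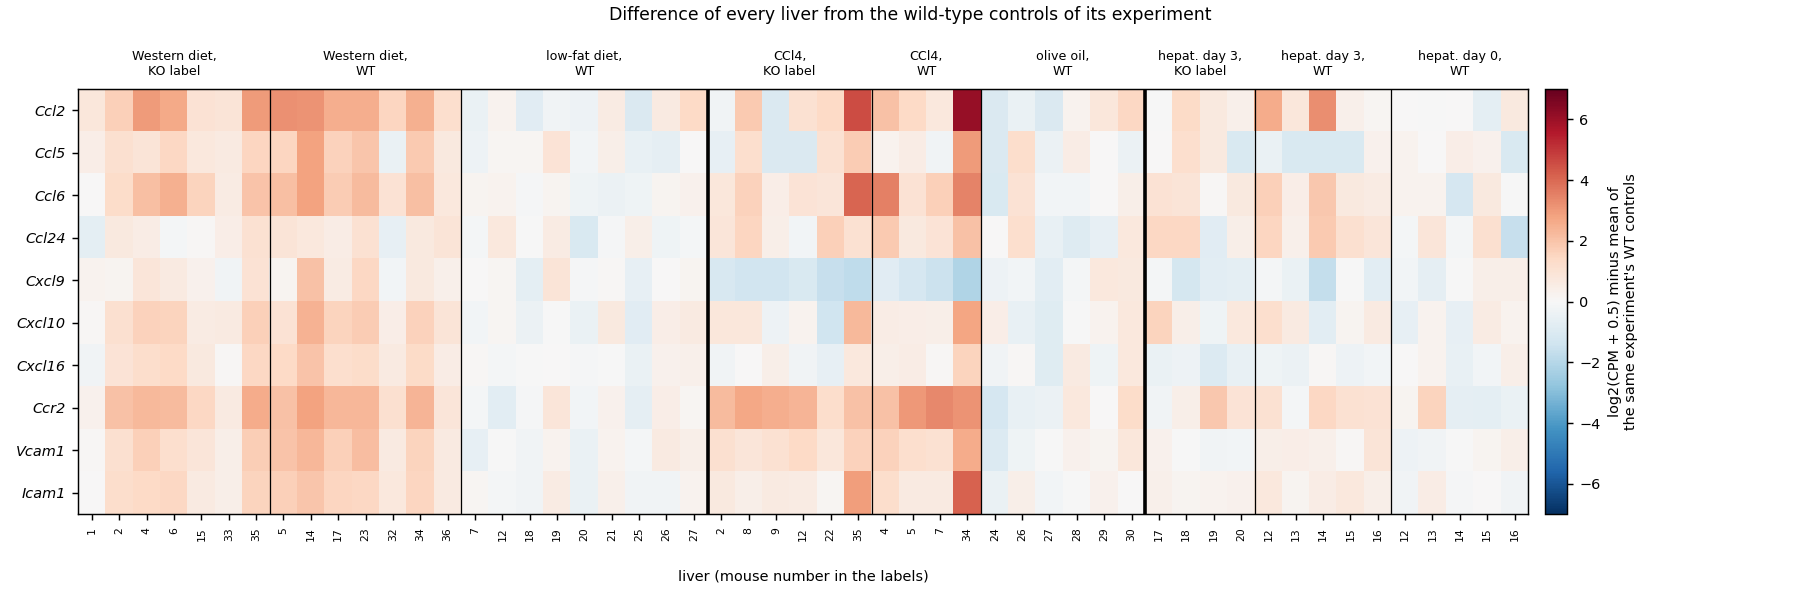
Difference of log2(CPM + 0.5) of each liver (columns, by mouse number) from the mean of the wild-type controls of its experiment, for the 10 genes (rows). Red is higher and blue lower than the controls. Of the Western diet livers, 1 and 33 (labelled knockout) and 32 and 36 (wild type) are pale, livers 35 and 34 are the reddest after CCl4, and the Cxcl9 row is blue in every CCl4 liver.

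Livers on Western diet differed in the mean over the members. The mean difference of the 10 genes from low-fat livers, on the log2(CPM + 0.5) scale, was 0.11 in labelled knockout liver 1 and 0.45 in liver 33, and 0.49 in wild-type liver 32 and 0.73 in liver 36, while wild-type liver 14 reached 2.31. Summed pan-leukocyte markers (Ptprc, Laptm5, Coro1a) moved with them: 30.1 CPM in liver 1, 38.6 CPM in liver 33, 60.6 CPM in liver 32, 50.2 CPM in liver 36 and 132.4 CPM in liver 14. Their part in the members' levels was not tested.

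Over the 14 Western diet livers, 3 pairs of functional partners were correlated on the log2(CPM + 0.5) scale, with permutation p-values adjusted over the 3 pairs. Ccl2 and its receptor Ccr2 had Pearson's r = 0.90 (adjusted p = 3e-05) and Spearman's rho = 0.78 (adjusted p = 0.00135). The CXCR3 ligands Cxcl9 and Cxcl10 had r = 0.87 (adjusted p = 4e-05) and rho = 0.88 (adjusted p = 0.000195). Vcam1 and Icam1 had r = 0.94 (adjusted p = 3e-05) and rho = 0.90 (adjusted p = 9e-05). The raw permutation p of r was 2e-05 for Ccl2 and Ccr2, 4e-05 for Cxcl9 and Cxcl10 and 1e-05 for Vcam1 and Icam1, the last being the smallest that 100000 permutations can give. Without the 2 livers farthest from the median of the first gene, r was 0.85 for Ccl2 and Ccr2, 0.81 for Cxcl9 and Cxcl10 and 0.90 for Vcam1 and Icam1. Within the 8 livers of index D501 r was 0.85, 0.83 and 0.95 for the pairs in the same order, with exact permutation adjusted p of 0.00362, 0.00362 and 0.000372. Within the 6 livers of index D502 r was 0.99, 0.95 and 0.94, with exact permutation adjusted p of 0.00833, 0.00833 and 0.0375. By rank, Ccl2 and Ccr2 within D501 (exact permutation adjusted p = 0.0694) and Vcam1 and Icam1 within D502 (exact permutation adjusted p = 0.0583) missed the threshold. Both genes of a pair come from the same library of each liver. No other pair of genes was correlated, so these values do not show that partners move together more closely than other genes.

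**Figure D4:**
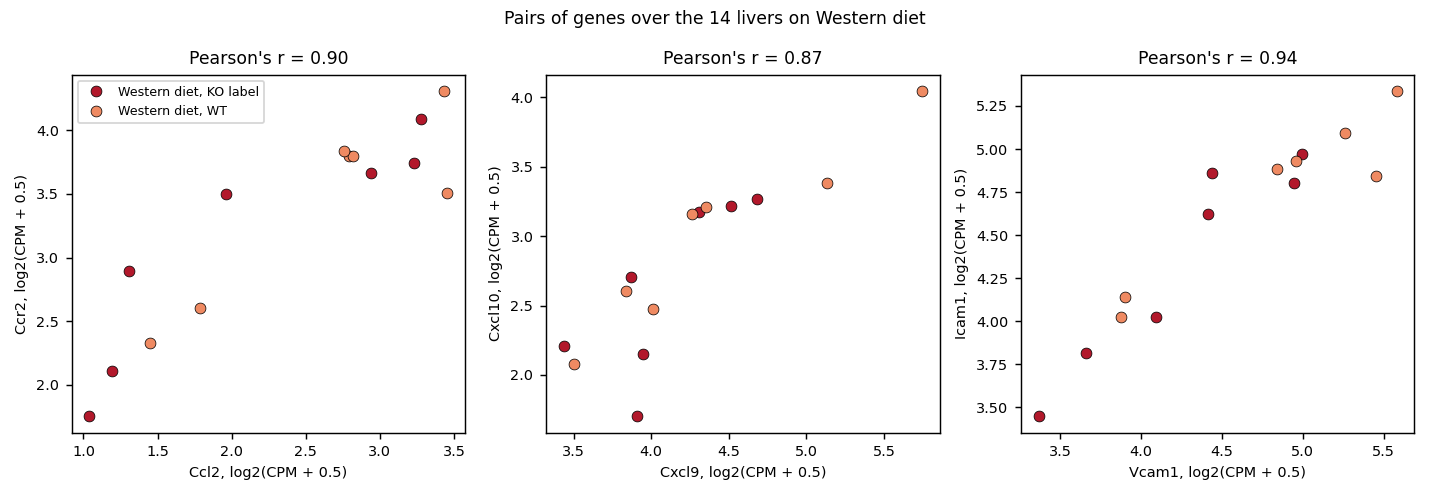
Log2(CPM + 0.5) of Ccr2 against Ccl2, Cxcl10 against Cxcl9 and Icam1 against Vcam1 in the 7 labelled knockout and 7 wild-type livers on Western diet. Points of both groups rise together along 1 line in each panel (Pearson's r 0.90, 0.87 and 0.94), with no group apart.

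Livers labelled knockout had lower estimates than wild-type livers for every tested member in all 3 challenges, and none was called. On Western diet 10 of 10 log2 fold changes were below 0, after CCl4 9 of 9 and at day 3 of hepatectomy 6 of 6, while 50.4%, 50.9% and 49.5% of all genes were. Of all genes, 0.0154% were called on Western diet (2 of 13005, with 766 at an unadjusted p under 0.05), 0.00857% after CCl4 (1 of 11663, with 719) and 0.154% at day 3 of hepatectomy (17 of 11026, with 1001). Of the members, 1, 0 and 1 had an unadjusted p under 0.05 in these comparisons, and DESeq2 and limma voom called none either. Because the members covaried across livers, their common sign is not 10 separate observations.

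The median log2 fold change of the members for labelled knockout over wild type was -0.38 on Western diet, -0.65 after CCl4 and -0.35 at day 3 of hepatectomy. Vcam1 had the most even values: -0.60 (SE 0.27, adjusted p = 0.813) on Western diet, -0.58 (SE 0.32, adjusted p = 0.815) after CCl4 and -0.50 (SE 0.24, adjusted p = 0.550) at day 3 of hepatectomy. It averaged 20.3 ± 8.33 CPM in labelled knockout livers and 30.8 ± 13.1 CPM in wild-type livers on Western diet (SD, n = 7 each). At day 3 of hepatectomy it had 7.51, 7.74, 8.65 and 11.1 CPM in labelled knockout livers, against 9.46 to 17.0 CPM in wild-type livers. The ranges overlapped in each experiment. Ccl5 on Western diet was the largest estimate there, -0.81 (SE 0.40, adjusted p = 0.813), with 1.20 to 2.91 CPM in labelled knockout livers and 0.387 to 8.05 CPM in wild-type livers.

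After CCl4 the direction for Ccl2, Icam1 and Cxcl10 turned without wild-type liver 34, while Ccl6, Ccl24, Cxcl16, Ccr2 and Vcam1 stayed below 0 whichever single library was left out. Ccl2 had 0, 0.349, 1.66, 2.13, 3.17 and 23.3 CPM in labelled knockout livers, against 1.22, 2.13, 3.65 and 67.8 CPM in wild-type livers, each group with 1 high liver. Its log2 fold change was -1.84 (SE 1.14, adjusted p = 0.831), and 1.14 without liver 34. Likewise Icam1 was -1.25 (SE 0.66, adjusted p = 0.814) and 0.43 without liver 34, and Cxcl10 was -0.65 (SE 0.66, adjusted p = 0.915) and 0.39 without it. Without livers 34 and 35 all 9 estimates were below 0, from -1.52 for Ccl6 (adjusted p = 0.349) to -0.15 for Cxcl9 (adjusted p = 0.944). Genes left out for low counts at day 3 of hepatectomy did not all share the sign when no filter was used: Ccl5 was at 2.00 (SE 1.18) and Cxcl10 at 0.34 (SE 0.57), and Ccl2 at -1.78 (SE 0.86) and Ccr2 at -0.05 (SE 0.73). On Western diet, the 6 genes marking macrophages that derive from monocytes or handle lipid summed to 68.7 to 487.4 CPM in labelled knockout livers and 127.8 to 632.8 CPM in wild-type livers, with none of the 6 called, and their part in the members' estimates was not tested.

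**Figure D5:**
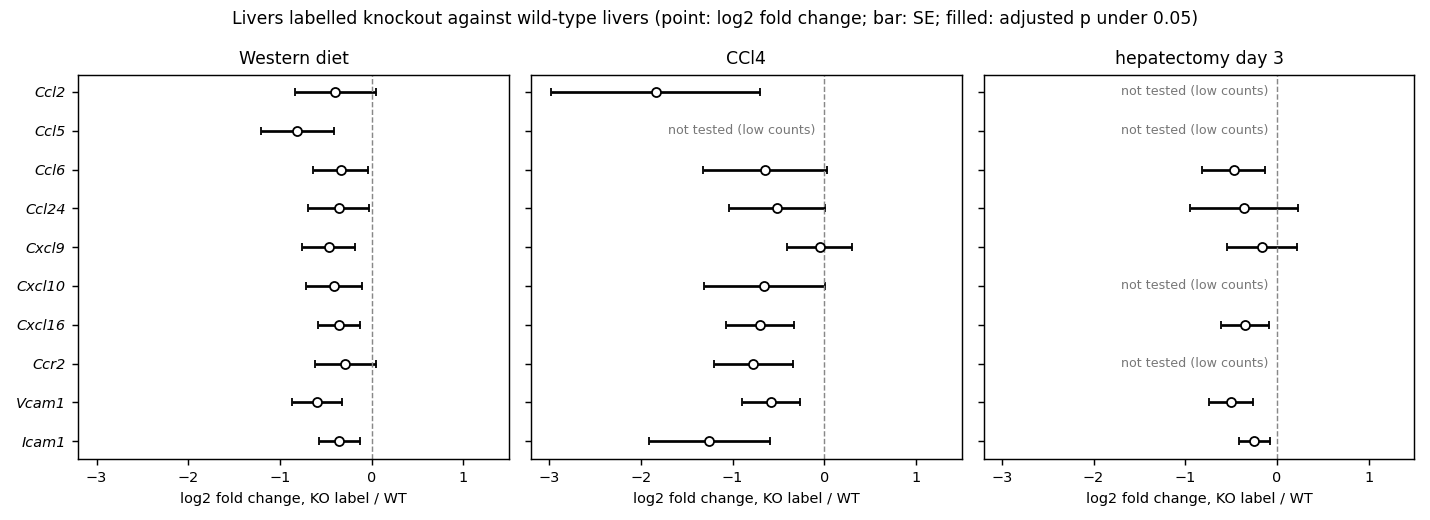
Log2 fold change of each gene for labelled knockout over wild-type livers (points, with the SE as bars) on Western diet, after CCl4 and at day 3 of hepatectomy. All points lie below 0, none is filled (adjusted p under 0.05), and Ccl2 and Icam1 after CCl4 lie farthest out, with Ccl2 having the widest error.

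Levels per kilobase of exon set the members roughly against each other, with length taken as the union of all annotated exons. These unions ran from 960 bases for Ccl5 to 8870 for Vcam1, with 6760 for Ccr2. Which transcripts were read was not determined, so the order of the members is approximate. In wild-type livers on Western diet the mean levels were 13.3 CPM per kb for Ccl6, 7.89 for Cxcl9, 7.42 for Cxcl16, 6.34 for Icam1 and 5.67 for Ccl2, with Ccr2 lowest at 1.71. In low-fat livers Cxcl9 was highest at 4.25 CPM per kb and Ccr2 lowest at 0.36, with Ccl2 next to lowest at 0.773. After CCl4 in wild-type livers Ccl6 was highest at 32.0 CPM per kb and Cxcl9 lowest at 1.21, while in olive oil livers Cxcl9, at 3.51, was below only Ccl6 (4.85) and Icam1 (3.60).

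For 4 members the genes with the most similar profile over the 53 livers were listed, by the mean absolute difference of log2(CPM + 0.5) after subtracting the control mean of each experiment, among 10705 genes. They were Klf6, Plek and Ccl6 for Ccl2 (0.69 each), Myof, Olfml3 and Capg for Ccr2 (0.46 to 0.54), Csf2ra, Icam1 and Marcksl1 for Cxcl10 (0.35 to 0.44), and Ifi204, Plekha1 and Nedd9 for Vcam1 (0.30 to 0.34). Members thus appeared in the lists of Ccl2 and Cxcl10. The 10705 genes were those tested in all 3 experiments with a mean of at least 1 CPM. Ccl2, Ccl5, Cxcl10 and Ccr2, too low to be tested after hepatectomy, could therefore not appear in any list.

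Other chemokine, receptor and adhesion genes were called most often on Western diet, where the median log2 fold change over all genes was -0.02. Of all 13005 genes tested on Western diet, 2656 were called higher and 2213 lower. Of 17 other CC and CX3C ligands 8 were tested there, and 6 were called higher and 1 lower, among them Ccl4, a macrophage inflammatory protein, at 1.41 ± 0.718 CPM on Western diet and 0.196 ± 0.141 CPM on low-fat diet (log2 fold change 2.75). The median of these ligands was 2.32. Of 22 other chemokine receptors 13 were tested, with 8 higher and 1 lower and a median of 0.92. Cx3cr1, the fractalkine receptor of monocytes and macrophages, rose by 2.82 on the log2 scale. Of 17 integrins and other adhesion genes 15 were tested and 9 were higher (median 0.62), including Itgb2, a subunit of ICAM-1 receptors, by 1.77 and Itga4, a subunit of the VCAM-1 receptor, by 1.30. Of 13 other CXC and XC ligands 6 were tested, with 3 higher and 1 lower (median 0.51), the lower being Cxcl12 (291 ± 30.9 CPM on Western diet and 387 ± 37.4 CPM on low-fat diet).

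After CCl4 fewer were called: 1 of 3 tested CC ligands was higher, 1 of 5 CXC ligands was higher and 1 lower, 4 of 12 adhesion genes were higher, and none of 5 receptors was called by edgeR (1 at an unadjusted p under 0.05). Ccl9, a macrophage chemokine of mice, was at 153 ± 55.5 CPM after CCl4 and 67.3 ± 18.7 CPM after olive oil, and Itgam, a partner of Itgb2, was at 25.8 ± 24.6 CPM after CCl4 and 1.75 ± 1.51 CPM after olive oil. Ccl9 at day 3 of hepatectomy was again higher, at 147 ± 12.5 CPM against 57.1 ± 5.73 CPM at day 0 (log2 fold change 1.36), and Cxcl1, a neutrophil chemokine, rose by 1.39. Of 22 genes of the interferon-gamma and NF-kappaB pathways, 14 of 20 tested were higher on Western diet (median 0.69) and 7 of 19 after CCl4 (median 0.76, against 0.05 over all genes). Ifng itself had 0 counts in wild-type livers after CCl4 and after olive oil. In the comparisons of labelled knockout with wild-type livers edgeR called no gene of these lists or of the cell type markers. At an unadjusted p under 0.05 were 3 of 114 on Western diet, against 766 of all 13005 genes. The counts were 5 of 88 after CCl4, against 719 of 11663, and 9 of 72 at day 3 of hepatectomy, against 1001 of 11026.

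Markers of some leukocytes moved with the members and those of others did not. On Western diet all 6 macrophage markers and all 6 markers of macrophages that derive from monocytes or handle lipid were called higher, as were 3 of 4 tested monocyte markers and 2 of 3 tested T and NK cell markers, while edgeR called 0 of 3 B cell markers (median log2 fold change 0.03, 0 at an unadjusted p under 0.05). Also called higher on Western diet were 3 of 3 pan-leukocyte, 2 of 2 tested neutrophil and 3 of 5 Kupffer cell markers. The T and NK cell sum was 3.42 to 17.4 CPM in wild-type livers given Western diet and 1.87 to 9.07 CPM on low-fat diet. After CCl4, 5 of 6 markers of monocyte-derived macrophages and 3 of 3 tested monocyte markers were higher, as were 2 of 6 general macrophage markers, and edgeR called 0 of 3 pan-leukocyte markers (2 at an unadjusted p under 0.05). Beside the lower Cxcl9, the T and NK cell sum after CCl4 was 0.250 to 3.86 CPM (median 3.28) in labelled knockout livers and 0.457 to 2.53 CPM (median 1.15) in wild-type livers, against 1.62 to 4.54 CPM (median 2.90) after olive oil. Its 1 tested marker was not called in wild-type livers (log2 fold change -1.50). Higher after CCl4 were also 1 of 2 tested neutrophil markers and 1 of 5 Kupffer cell markers. At day 3 of hepatectomy 1 of 1 tested monocyte and 2 of 2 tested monocyte-derived macrophage markers were higher. The same held for 1 of 1 tested neutrophil and 1 of 5 Kupffer cell markers. Called there were 0 of 6 general macrophage, 0 of 3 pan-leukocyte and 0 of 1 tested T and NK cell markers. Of 5 endothelial markers, 3 were higher on Western diet. Of the same markers, Kdr and Clec4g were lower after CCl4 (by -1.22 and -0.79 on the log2 scale) and at day 3 of hepatectomy. The sum of the 5 endothelial markers differed by index within the olive oil livers. It was 137.0, 170.9 and 190.2 CPM in livers of index D505, against 93.32, 89.96 and 94.69 CPM in those of D504. Wild-type CCl4 livers had 84.75, 85.38 and 94.28 CPM in index D503 and 183.5 CPM in liver 34, of D505. The part of the index in the lower Kdr and Clec4g was not tested. Ccl2, Ccr2, Vcam1 and Cxcl9 were also lower in every D504 olive oil liver than in every D505 olive oil liver. Ccr2 had 0.274, 0.714 and 0.772 CPM in D504 and 1.26, 2.39 and 3.77 CPM in D505. Vcam1 had 4.65, 7.85 and 9.26 CPM in D504 and 11.2, 12.0 and 17.1 CPM in D505. For the other members the ranges of these indexes overlapped. Day 3 and day 0 of hepatectomy share no index. The red-cell sum, from residual blood, was 51.8 to 101.4 CPM in wild-type livers after CCl4 and 178.1 to 272 CPM after olive oil. The part of these shifts in the members' values was not tested.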

How the data were processed

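The authors deposited 3 tables of read counts for Ensembl genes, which they had not normalized. Per the submitters' processing notes, GRCm38 was the genome, TopHat2 2.0.11 the aligner and HTSeq the counter. The version of HTSeq, the annotation, the strand setting and any filters are not given in the sources used here. Libraries came from an mRNA kit, per the labels' protocols. Groups were taken from the labels. Symbols, positions and exon lengths came from GENCODE vM21, and promoters from RefSeq.

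The 3 groups of a table were fitted together, separately from other tables, by edgeR 4.0.16 under R 4.3.3, with TMM scaling, filterByExpr and the two-sided quasi-likelihood test, adjusted over all tested genes. Differences between responses were fitted jointly over the 53 libraries. Correlations used two-sided permutation tests (100000 resamples, exact within an index). Alternatives were DESeq2 1.42.0, limma 3.58.1 voom, RLE size factors, other filters, 2-group fits, the i5 index, the mouse number and leaving out libraries. The fits were tested on simulated data. A count of 0 was taken to allow 3 counts, by counting error only. The members and lists were chosen with earlier results of these data known. Named genes are the members, Bmp8b, the 3 genes most alike to 4 members, and up to 3 per list by p. No pair of libraries of a group matched within counting error (lowest chi-square per degree of freedom 5.00). Some genes of the lists are not reported here by name.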

Additional observations from a re-analysis of the deposited data

Results flagged for a closer look

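Of 90 combinations of a member and a group, 10 held a liver far from the others of its group by Dixon's criterion. Chance gives about 1 in 20 for separate, normally distributed values. These combinations are not separate, as livers 34 and 35 recur over several genes, and CPM values are skewed. After CCl4, labelled knockout liver 35 was high for Ccl2 (23.3 CPM, the next liver at 3.17), Ccl6 (138 CPM, the next at 25), Cxcl10 (12.5 CPM, the next at 4.22) and Icam1 (118 CPM, the next at 25.3). Wild-type liver 34 was high for Ccl2 (67.8 CPM, the next at 3.65), Ccl5 (7.50 CPM, the next at 0.933), Cxcl10 (17.9 CPM, the next at 3.42) and Icam1 (280 CPM, the next at 36.8). Both livers also had the highest monocyte marker sums of their groups, 293.1 CPM in liver 35 and 229.7 CPM in liver 34, and neither had the highest Ccr2 of its group. The part of these markers in the high values was not tested.

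Low-fat liver 19 had 23.5 CPM of Cxcl9 (the next at 13.9), and day 0 liver 13 had 3.11 CPM of Ccr2 (the next at 0.895). The response of Cxcl9 differed between Western diet and CCl4 by 2.45 on the log2 scale, and that of Cxcl16 between Western diet and hepatectomy by 1.56, each by a test of the difference itself.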

How the results depend on the processing

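The directions of the called wild-type responses held under every alternative run. The number of genes called moved past 1.5 times in these cases: 1401 for wild-type livers on Western against low-fat diet and 1 for labelled knockout against wild type, both within index D502 (fewer livers, a fit chosen after seeing the data, as were all within an index); 3599 for CCl4 against olive oil with the index as a covariate; for labelled knockout against wild type after CCl4, 21 by DESeq2, 2 by voom, 2 without livers 34 and 35, and 0 within index D503; for the knockout label after hepatectomy, 63 by DESeq2 and 182 with no filter; for CCl4 minus hepatectomy 513 with no filter; and for diet minus hepatectomy 295 with no filter and 684 by DESeq2. DESeq2 called 1 member for CCl4 minus hepatectomy (Icam1, 2.02, adjusted p = 0.0220) and 3 for diet minus hepatectomy (Cxcl16 with Ccl5, 3.93, adjusted p = 0.0415, and Cxcl9, 1.49, adjusted p = 0.0362). The cause was not tested.

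Ccl24 was called on Western diet by DESeq2 (adjusted p = 0.0496) and voom (0.0263), and after CCl4 by DESeq2 (0.0285) and with the index as a covariate (2.25, 0.0141), as was Cxcl10 (1.74, 0.0428). Liver 34 is the only wild-type CCl4 liver that shares an index with olive oil livers, so without it index and CCl4 cannot be told apart in wild type. Voom gave Ccl2 after CCl4 2.00 (adjusted p = 0.107), Ccl6 1.74 (0.0102) and Icam1 0.81 (0.0455). Signs of uncalled estimates for labelled knockout against wild type turned for Ccl2 (0.29), Ccl24 (0.17) and Ccr2 (0.13) on Western diet within D502, and for Cxcl9 after CCl4 by voom (0.011) and with the index (0.12).

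Leaving out 1 library, genes called ranged from 451 to 1178 for CCl4 minus hepatectomy, from 282 to 476 for diet minus hepatectomy, from 1 to 2 for the knockout label after CCl4 and from 3 to 40 at day 3 of hepatectomy. Members called ranged from 0 to 2 for hepatectomy, from 0 to 1 for CCl4 minus hepatectomy and from 1 to 2 for diet minus hepatectomy. Uncalled estimates that changed sign ranged as follows. For the knockout label after CCl4, Ccl2 from -3.71 to 1.14, Cxcl9 from -0.23 to 0.20, Cxcl10 from -1.34 to 0.39 and Icam1 from -2.05 to 0.43, and at day 3 of hepatectomy Cxcl9 from -0.43 to 0.0082. For diet minus CCl4, Ccl2 from -2.29 to 1.29, Ccl5 from -0.21 to 2.14, Cxcl10 from -0.13 to 1.16, Vcam1 from -0.16 to 0.44 and Icam1 from -1.42 to 0.59. For CCl4 minus hepatectomy, Ccl2 from -1.50 to 2.15, Ccl24 from -0.039 to 0.82 and Cxcl10 from -0.16 to 1.15, and for diet minus hepatectomy Ccl2 from -0.58 to 0.48.

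Day 3 and day 0 wild-type livers share mouse numbers. Same-numbered livers correlated, after removing group means, at 0.0324, -0.0124, -0.0206, 0.0756 and 0.0898 for mice 12 to 16, and 12, 15 and 16 matched their own number best. Correlations this low do not show pairing and do not settle whether the animals are the same. With the number as a replicate block 0 members were called, with Ccl6 at 1.06 (adjusted p = 0.0568) and Icam1 at 0.53 (adjusted p = 0.0639). A fit with the index as a covariate was not run for hepatectomy, where day 3 and day 0 share none. Depth limits most Ccl2 and Ccl5, with fewer than 10 counts in most libraries of both the CCl4 and the hepatectomy experiment.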
